A study of Mus musculus with 52 samples.

Results

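Oct4, the product of Pou5f1, is a POU-family transcription factor that pluripotent cells need and that fibroblasts keep silent. Its own gene is among its targets. Transcription is driven by a promoter without a TATA box and by an upstream pair of elements, the distal enhancer, used in naive pluripotent cells, and the proximal enhancer, used mainly after implantation. In differentiated cells the locus is closed by repressive chromatin.

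The peaks analysed were all those that shared at least 1 bp with an 80 kb window around Pou5f1, at chromosome 17, positions 35600000 to 35680000 (mm9). The gene lies on the plus strand at about 35642977 to 35647722, a position taken from outside the peak lists, so its enhancers are at lower coordinates. The window held 138 of the 928298 peaks of 43 ChIP-seq peak lists. It was chosen by the width and edges of the peaks around the gene in these same lists, so widths and positions are given as a description.

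Mouse embryonic fibroblasts (MEF) that were Mbd3+/+ or Mbd3flox/- (a floxed and a null allele) were profiled before doxycycline, after 4 and 8 days of doxycycline at 2 µg/ml, and as induced pluripotent stem (iPS) cells. Both genotypes carried doxycycline-inducible Oct4, Sox2, Klf4 and Myc. Mbd3-/- embryonic stem (ES) cells were the third genotype. Antibodies were against H3K4me3 (a promoter mark), H3K27ac (a mark of active regulatory elements), H3K27me3 (deposited by Polycomb), Oct4, and Mbd3 and Mi2B, a subunit and the remodeller of the NuRD complex. Fibroblasts grew in serum medium and the other cells in a mouse ES cell medium with inhibitors and LIF. The cells used were clones with a randomly inserted Oct4-GFP reporter built from Pou5f1 sequence. According to the series description, the +/+ clone carried the GOF18 deltaPE form, which lacks the proximal enhancer. The flox/- and -/- cells carried the complete GOF18 form. Reads from reporter copies and from the native gene align to the same positions, so their shares of a peak cannot be told apart here. The copy number of the reporter was not measured, and the 9 input libraries were not analysed here.

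With 1 library for each antibody in a given genotype and stage, no difference has a replicate check. Lists held 274 to 63888 peaks, read depth is unknown, and a missing peak means that none was detected. Scores are the authors' own, from 50.0 upward, and serve only to rank peaks within a list. The +/+ Mbd3, Mi2B and H3K27me3 samples of day 4 and the +/+ Mi2B sample of day 8 have a stage label that names a later day than the title, which was followed. Mbd3 lists came from +/+ cells, and cell types were not checked against other marker genes because no mm9 annotation was used.

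The first of 2 RefSeq promoters listed for Pou5f1, that of the upstream start, is shown because peaks of all 6 antibodies crossed the gene start. It comes from GRCm38.p6, another build than the lists, at chr17:35505782-35506081 on the plus strand. Capitals mark the GC box GGGCGG and AGGTCA, a motif of nuclear receptors.

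Pou5f1 promoter: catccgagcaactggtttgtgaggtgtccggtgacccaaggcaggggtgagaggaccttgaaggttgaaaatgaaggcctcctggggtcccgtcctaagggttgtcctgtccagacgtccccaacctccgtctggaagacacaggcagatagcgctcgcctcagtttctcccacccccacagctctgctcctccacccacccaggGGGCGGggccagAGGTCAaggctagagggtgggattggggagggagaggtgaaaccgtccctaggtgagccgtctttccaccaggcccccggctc

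On both strands, GGGCGG was found in 35.7% and AGGTCA in 16.3% of 32851 RefSeq promoters of this length. The octamer-like ATGCAAA, found in 4.63%, and the Sox-like CATTGT, found in 12.6%, had no match in this window. The second listed promoter, at chr17:35508557-35508856, had a CATTGT match on the minus strand and none of the other motifs. In the same annotation the next gene downstream of Pou5f1 is Tcf19, followed by Cchcr1, and the next upstream is the lncRNA Gm32362, with H2-Q10 beyond it. Peaks were not assigned to these neighbours because the builds differ.

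A peak in the window was present in 35 of the 43 lists, whereas over all lists 26.8% of 80 kb tiles of the genome held one. The 8 lists without a peak were those of H3K27ac, Oct4 and Mbd3 in MEF, of H3K27ac in +/+ day 4 cells, and of H3K27me3 in +/+ day 4 and day 8 cells. By antibody, a peak was present in 9 of 9 H3K4me3 lists (34.7% of tiles), 6 of 9 H3K27ac lists (41.7%) and 6 of 8 H3K27me3 lists (14.5%). It was present in 5 of 7 Oct4 lists (21.1%), 7 of 7 Mi2B lists (25.1%) and 2 of 3 Mbd3 lists (8.27%). Members were 142 to 23519 bp wide, with a median of 2131.5 bp.

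The members included very long peaks over the gene. A peak of at least 10 kb crossed Pou5f1 in 19 lists. Of all peaks 1.05% are that wide, and 8849 of these 9793 wide peaks were of H3K27ac. Of 80 kb tiles, 13.2% held such a peak for at least 1 antibody. These 19 peaks came from all 6 antibodies and were 12843 to 23519 bp wide. The widest peak over the gene below the threshold measured 7926 bp. Their median left edge was at 35634404, at -8.57 kb from the gene start (minus for upstream), and their median right edge at 35652337, 4.62 kb past the gene end. The 17.9 kb between these medians is called the block here. The ends of the reporter's Pou5f1 fragment are not given in the sources used here, so the block was not set against them.

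**Figure D1:**
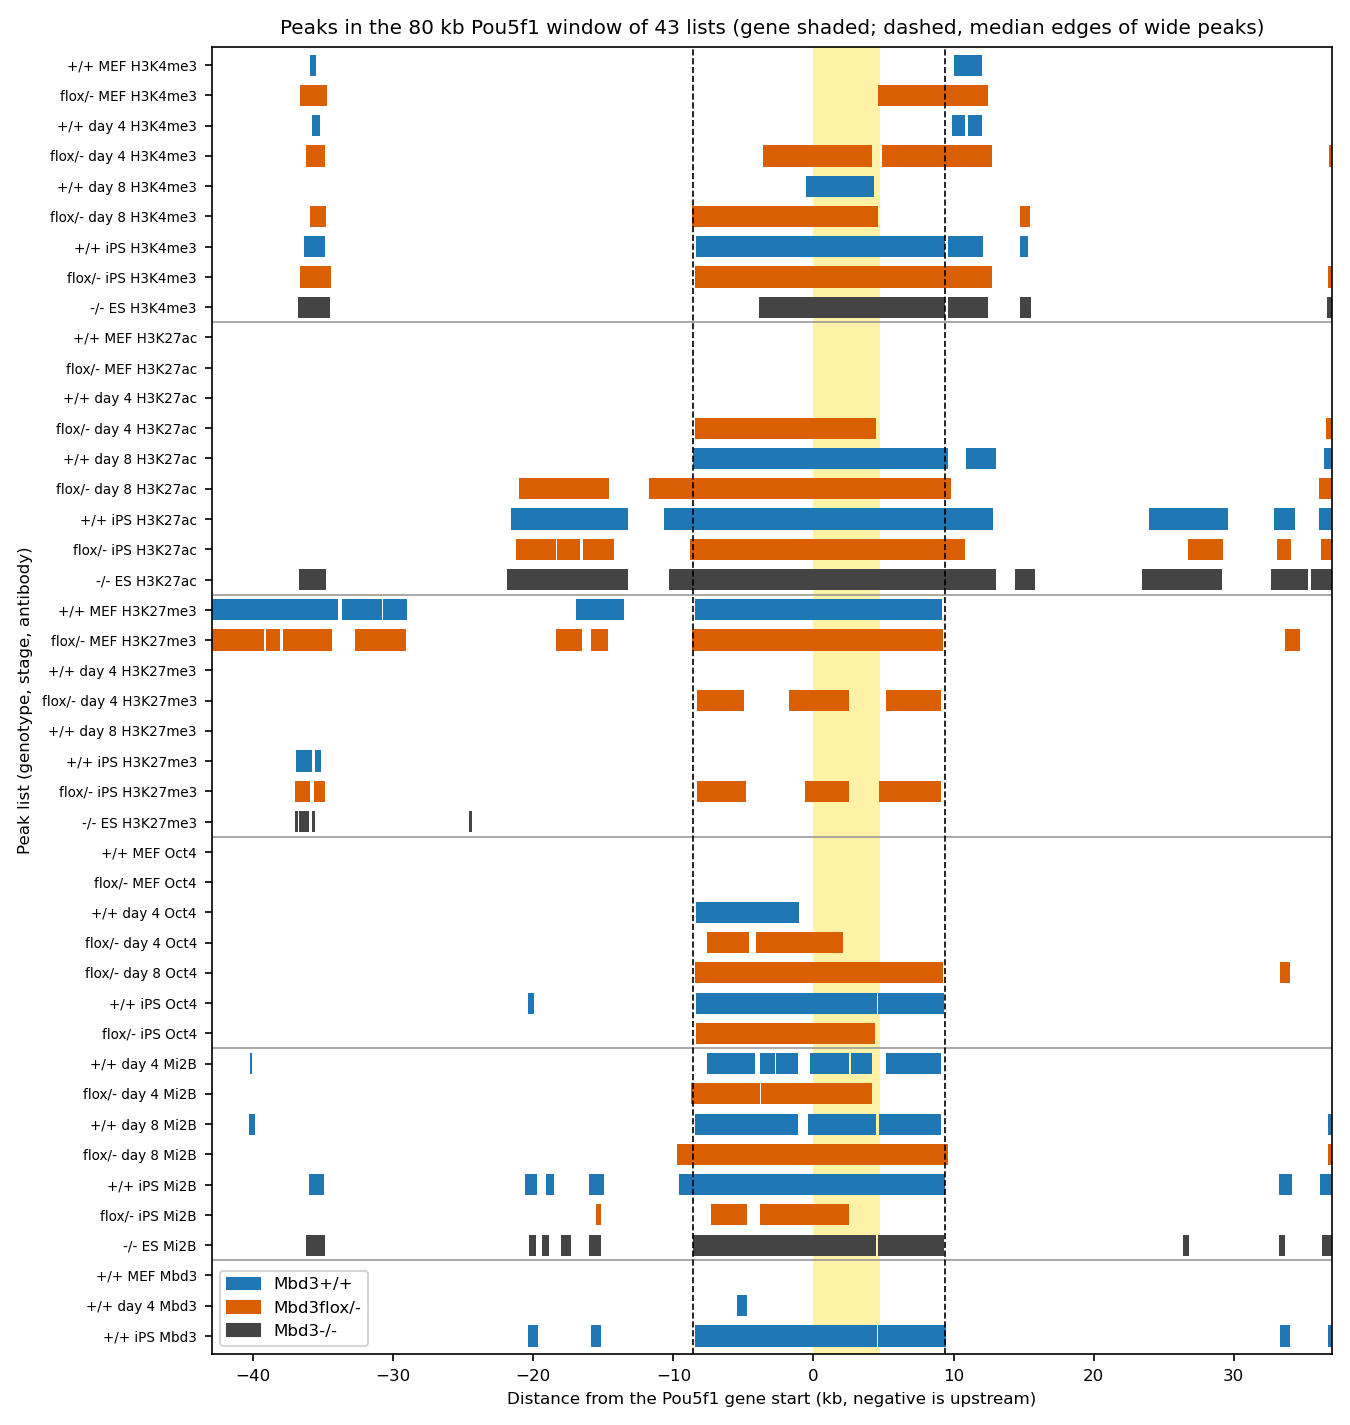
Each row is a peak list and each bar a peak, placed by distance from the Pou5f1 gene start in kb and coloured by genotype. The gene is shaded and dashed lines mark the median edges of the 19 wide peaks, at -8.57 and 9.36 kb. Bars of different antibodies start and stop near these lines.

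Polycomb marking covered 98.2% and 99.5% of the block in +/+ and flox/- fibroblasts. It was not confined to the block. Over the whole window it covered 34.71 kb in +/+ and 34.03 kb in flox/- MEF, of which 17.61 and 17.84 kb lay in the block. In +/+ MEF a H3K27me3 peak of 17611 bp ran from 35634520 to 35652130, with a score of 562.68. In flox/- MEF the peak was 17935 bp long, from 35634306 to 35652240, with a score of 1185.78. Of all H3K27me3 peaks, 0.563% are at least 10 kb wide. The edges of the MEF peaks lay within 214 bp of each other on the left and 110 bp on the right. No H3K27me3 peak touched the block in +/+ cells on day 4, day 8 or as iPS cells, nor in -/- ES cells. The +/+ lists of day 4 and day 8 were short, with 570 and 939 peaks, and the day 8 sample is labelled as a duplicate entry for material recorded elsewhere. No flox/- day 8 list of H3K27me3 was analysed here. The flox/- cells had pieces of it. On day 4 there were 3 H3K27me3 peaks in it, of 3319, 4276 and 3934 bp, covering 64.3% of the block. That list held only 567 peaks, among which these had ranks 5, 2 and 3 by score and 5, 1 and 3 by width. In flox/- iPS cells 3 peaks of 3550, 3207 and 4458 bp covered 62.5% of it, with scores of 95.12 to 206.47. The middle piece of each trio overlapped the promoter and the start of the gene.

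Oct4 peaks at its own locus were found from day 4 on, in cells that also made Oct4 from the inducible transgene. No Oct4 peak was found in the window in either MEF list. On day 4 the +/+ list had a peak of 7373 bp that ended at -1.02 kb. The flox/- list had peaks of 2963 and 6202 bp on that day, the second reaching 2.13 kb into the gene. On day 8 the flox/- peak was 17669 bp long with a score of 3080.76, the third highest of 19805. No +/+ day 8 list of Oct4 was analysed here. In iPS cells the wide peak measured 12877 bp in +/+ and 12843 bp in flox/- cells, and +/+ cells had a further peak of 4678 bp behind it. The widest Oct4 peak of the whole list lay in the window in all 5 Oct4 lists that had a member. Only 0.00348% of Oct4 peaks were at least 10 kb wide, and these are the 3 just named. The enhancer segment, from -3.0 to -0.5 kb, was covered in full in 4 of the 5 lists, the exception being +/+ day 4.

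H3K27ac over the gene was first found on day 8 in +/+ and on day 4 in flox/- cells. Neither MEF list had a H3K27ac peak anywhere in the window, nor did the +/+ day 4 list. On day 4 the flox/- list had a peak of 12874 bp, from -8.44 to 4.44 kb. On day 8 the peak measured 18203 bp in +/+ and 21612 bp in flox/- cells. In iPS cells it measured 23519 bp in +/+ and 19602 bp in flox/- cells, and in -/- ES cells 23343 bp. From day 8 on the whole block was acetylated in all 5 lists. Long H3K27ac peaks are not rare, since 2.45% of peaks of this antibody reach 10 kb. The peak over Pou5f1 ranked between 35 and 199 by width in its list.

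H3K4me3, which marks promoters of active or poised genes, was found downstream of the gene in both MEF lists, where it did not cover the promoter. In +/+ MEF and on +/+ day 4 no H3K4me3 peak touched the block, but peaks of 914 and 1089 bp in MEF, and of 963 and 946 bp on day 4, lay between 9.87 and 12.07 kb past the gene start. In flox/- MEF a peak of 7859 bp reached from the gene end to 12.49 kb past the gene start and covered 26.3% of the block. On day 4 the flox/- list had a peak of 7834 bp across the promoter, with a score of 51.65 against a lowest score of 50.0 in the lists. By day 8 +/+ cells had a peak of 4856 bp from 35642464 to 35647319, close to the gene itself. It was the only H3K4me3 peak of that list in the window, so the downstream peaks were not found on that day. The flox/- peak was 13242 bp long and reached -8.67 kb. The flox/- day 8 peak was the widest of its list. In iPS cells the peaks measured 17789 bp in +/+ and 21206 bp in flox/- cells, and in -/- ES cells the peak measured 13267 bp. The background share of H3K4me3 peaks of at least 10 kb was 0.0582%. Of tiles with a H3K4me3 peak in either list of a pair, flox/- covered more in 99.1% in MEF and 96.7% on day 4. On day 8 it covered more in 89.6% and in iPS cells in 66.9%. More H3K4me3 coverage in flox/- than in +/+ cells is therefore not particular to Pou5f1.

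NuRD components were also spread along the block. Mi2B, its ATP-dependent remodeller, had peaks in the block in all 7 lists. On day 4 they covered 79.4% of it in 7 pieces in +/+ cells and 70.6% in 2 pieces in flox/- cells. On day 8 they covered 92.8% in 3 pieces in +/+ cells, and in flox/- cells a peak of 19352 bp spanned all of it. The +/+ iPS list had a peak of 18945 bp, the -/- ES list 1 of 13054 bp followed by 1 of 4675 bp, and the flox/- iPS list 2 pieces of 2521 and 6337 bp. The flox/- iPS list is short, with 3462 peaks, and the 6337 bp piece had its highest score. In each of the 7 lists the best-scoring peak of the window ranked between 1 and 20. Mbd3 itself, measured in +/+ cells, had no peak in MEF, a peak of 749 bp on day 4 that lay at -5.49 to -4.74 kb, and in iPS cells a peak of 12988 bp followed by 1 of 4818 bp. At least 10 kb was reached by 0.00241% of Mi2B and 0.00849% of Mbd3 peaks. For Mi2B these were the 3 peaks in the flox/- day 8, +/+ iPS and -/- ES lists, and for Mbd3 the +/+ iPS peak.

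**Figure D2:**
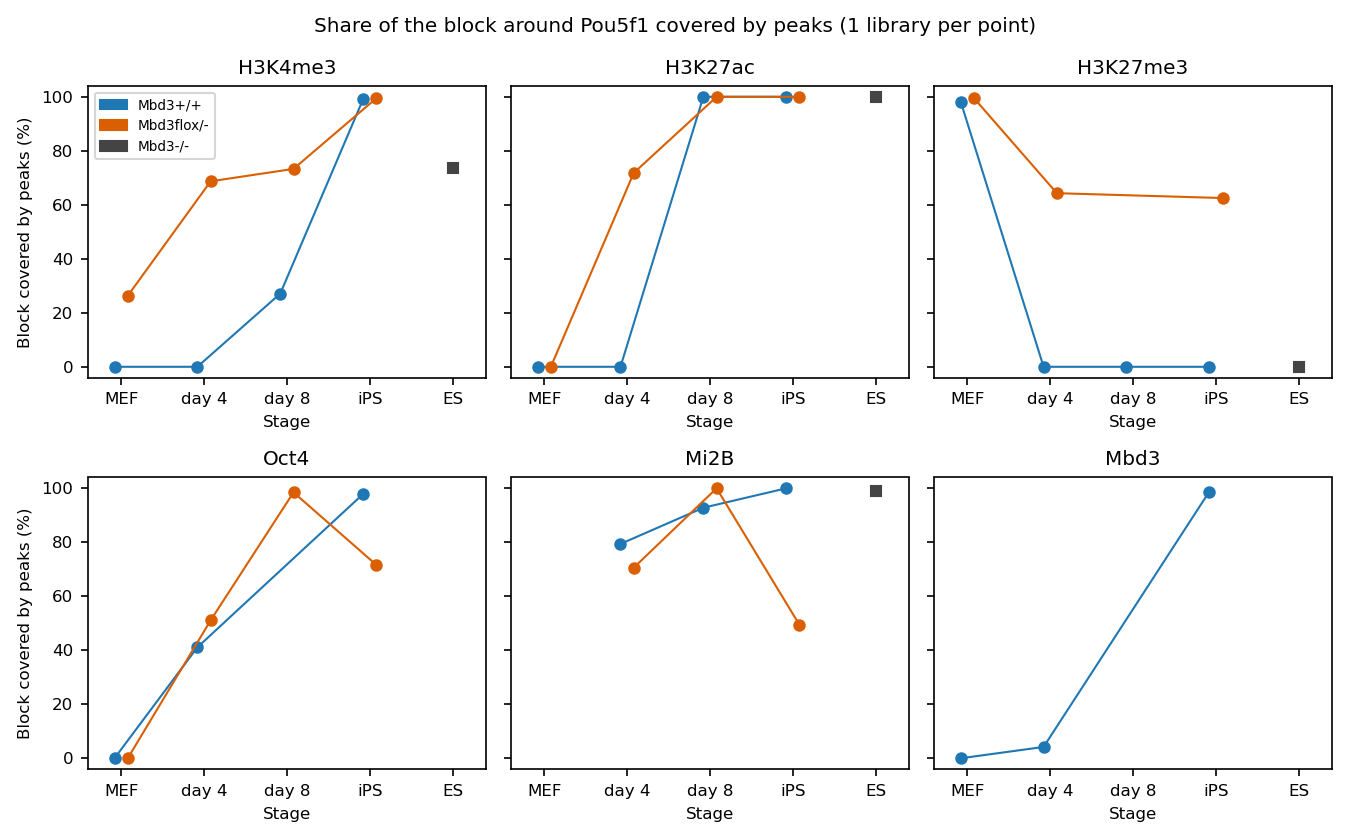
The share of the block covered by peaks is plotted against stage for each antibody, with 1 library per point, coloured by genotype, and lines joining the stages that have a list. H3K27me3 starts at 98.2% and 99.5% in MEF, while H3K27ac starts at 0 and covers the whole block from day 8 on.

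Edges of the long peaks were shared between antibodies. The left edge lay within 500 bp of the median in 13 of the 19 lists and the right edge in 9. Right edges formed a second cluster near the gene end. In 6 lists the wide peak stopped 4.42 to 4.57 kb past the gene start, at the end of the gene. These were the lists of H3K4me3 in flox/- day 8, H3K27ac in flox/- day 4, Oct4 in both iPS lines, Mi2B in -/- ES and Mbd3 in +/+ iPS cells, so the short form came from 5 antibodies. In +/+ iPS Oct4, -/- ES Mi2B and +/+ iPS Mbd3, however, a second peak followed after a narrow break, given below. It ended at 9.3, 9.3 and 9.45 kb, and peaks covered 97.9%, 98.9% and 98.8% of the block. These lists are thus short only as the peaks were called. The long form had both edges within 500 bp of the medians in 5 lists of 4 antibodies, which were H3K27me3 in both MEF lines, H3K27ac in +/+ day 8, Oct4 in flox/- day 8 and H3K4me3 in +/+ iPS cells. With a tolerance of 2 kb the long form was found in 8 lists. With peaks less than 1 kb apart joined and the medians taken anew, it was found in 11. Of the 10 wide H3K4me3 and H3K27ac peaks, 2 had both edges within 500 bp of the medians, as had both H3K27me3 peaks of MEF.

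Taking edges of peaks of any width less than 200 bp apart together, 18 lists of all 6 antibodies had a left edge between -8.78 and -8.29 kb. In 15 lists of all 6 antibodies an edge fell between 9.11 and 9.62 kb, and in 13 lists of all 6 antibodies between 4.15 and 4.87 kb. These counts include the wide peaks. Of peaks under 10 kb, those of 5 lists and 3 antibodies had an edge in the first of these places, 9 lists and 5 antibodies in the second, and 10 lists and 5 antibodies in the third. Smaller clusters lay at -4.98 to -4.64 kb, where peaks of 5 lists ended, and at -3.87 to -3.64 kb, where peaks of 5 lists had an edge. In flox/- cells breaks began at the first of these clusters and ran to different ends, to -1.73 kb in day 4 H3K27me3, -4.07 kb in day 4 Oct4, -0.64 kb in iPS H3K27me3 and -3.79 kb in iPS Mi2B. A break at the gene end was narrow in several lists, with 107 bp in +/+ iPS Oct4, 147 bp in -/- ES Mi2B and 67 bp in +/+ iPS Mbd3.

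A break just before the promoter was seen in the +/+ Mi2B lists of day 4 and day 8. In the +/+ Mi2B lists it spanned 876 bp on day 4, from -1.14 to -0.26 kb, and 723 bp on day 8, from -1.11 to -0.39 kb. The +/+ day 4 Oct4 peak ended in it. The day 8 break, at 35641863 to 35642585, was then looked up in all lists with a peak in the block. The +/+ day 4 Oct4 peak covered 13.6% of it, the +/+ day 8 H3K4me3 peak 16.9% and the +/+ day 4 Mbd3 list 0.0%. Every flox/- Mi2B and Oct4 list with a peak in the block covered it in full. The flox/- exceptions were MEF H3K4me3 at 0.0% and iPS H3K27me3 at 33.9%. Over all antibodies, 7 of 12 +/+ lists with a peak in the block covered it in full, 14 of 16 flox/- lists and 3 of 3 -/- lists. The 5 +/+ iPS lists with a peak in the block, the day 8 H3K27ac list and the MEF H3K27me3 list covered it in full too. These counts do not separate a break from a lack of peaks nearby. Among the +/+ lists short of full cover, only the Mi2B lists had peaks on both sides of the interval. Within the block, the day 4 Oct4 list had no peak beyond -1.02 kb and the day 8 H3K4me3 list none before -0.51 kb. The day 4 Mbd3 list had only a peak at -5.49 to -4.74 kb. The proximal enhancer lies just upstream of the promoter, and the +/+ reporter lacks it. Reporter form and Mbd3 genotype go together in this design and cannot be told apart. The interval was chosen after its coverage was seen. It is the break of the +/+ day 8 Mi2B list, which is uncovered by definition and still counts among the 12 +/+ lists. Only +/+ cells had Mbd3 lists, so the counts are a description and do not compare the genotypes.

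**Figure D3:**
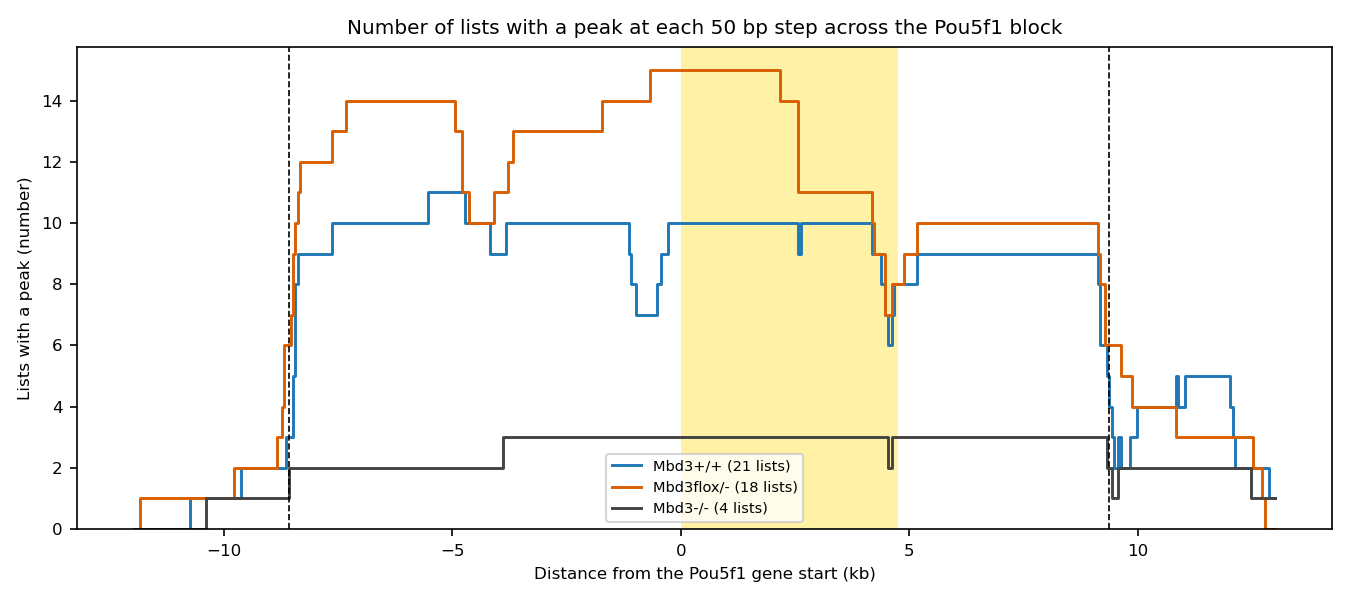
The number of lists with a peak is plotted at 50 bp steps against distance from the Pou5f1 gene start in kb, for the 21 +/+, 18 flox/- and 4 -/- lists. The +/+ line drops to 7 lists just before the gene start, where the other lines do not drop, and all lines drop near the gene end and at the median edges.

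Coverage of the window by genotype was compared in 17 pairs of lists of the same antibody and stage. The flox/- list covered more of the window in 10 pairs and less in 5, and in 2 pairs neither covered any. Over all tiles with a peak in either list of these pairs, flox/- covered more in 53.7%, so the count is near the background. On day 4 the covered lengths were as follows. H3K27ac covered 0.0 kb in +/+ and 13.33 kb in flox/- cells, while flox/- covered more in 43.8% of tiles of that pair. H3K27me3 covered 0.0 and 11.53 kb, with flox/- ahead in 54.0% of tiles. H3K4me3 covered 2.49 and 17.17 kb, but there flox/- was ahead in 96.7% of tiles, and the difference of 14.68 kb was 6.84 kb with equal numbers of top-scoring peaks. Oct4 covered 7.37 and 9.16 kb and Mi2B 14.38 and 12.82 kb, so these pairs differed by less than 2 kb. With 250 bp either side of each peak midpoint in place of the peak, the day 4 differences (flox/- minus +/+) were 0.5 kb for H3K27ac, 1.5 kb for H3K27me3, 0.0 kb for H3K4me3, 0.5 kb for Oct4 and -3.0 kb for Mi2B. This setting gives every peak the same length, so it follows the number of peaks and cannot check covered length. For Mi2B that number was 8 in +/+ and 2 in flox/- cells.

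In iPS cells the order was mixed. H3K4me3 covered 22.44 kb of the window in +/+ and 23.74 kb in flox/- cells. H3K27me3 covered 1.48 kb and 13.04 kb, and flox/- was ahead in 45.4% of tiles. H3K27ac covered 39.9 and 30.56 kb, Oct4 17.99 and 12.84 kb, and Mi2B 24.39 and 9.19 kb. The Oct4 difference of -5.15 kb was -0.03 kb with scores of at least 100 or equal numbers of top-scoring peaks, the +/+ peak of 4678 bp having a score of 58.89. The flox/- lists of Oct4 and Mi2B were also shorter, with 3331 against 11881 and 3462 against 26992 peaks, and flox/- was ahead in 15.2% and 2.51% of tiles. In flox/- iPS cells the H3K27me3 pieces thus lay at the same positions as a H3K27ac and a H3K4me3 peak.

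Against the rest of the genome, the window stood alone by the number of antibodies with a long peak. The window was chosen by the width of its peaks, so this describes it and tests nothing. Of 33027 tiles of 80 kb, 1 had a peak of at least 10 kb for all 6 antibodies, or 0.00303%, and this was the Pou5f1 window. Oct4, Mi2B and Mbd3 had 0 peaks of this width outside the window, so no other tile could exceed 3 antibodies, and 15 had 3. The window was also the tile with such peaks in the most lists, 19. The widest Oct4 peak elsewhere in the nuclear genome measured 6340 bp, the widest Mi2B peak 9983 bp, just under the 10 kb limit, and the widest Mbd3 peak 3959 bp. These Oct4 and Mbd3 peaks overlapped each other on chromosome 17, at 39979574 to 39985913 and 39979940 to 39983898. The Mi2B peak, at 166426454 to 166436436 on the X chromosome, lay inside the widest H3K4me3 peak elsewhere. On the mitochondrial genome the widest peaks of Oct4, Mi2B and Mbd3 measured 6583, 6619 and 6613 bp. For the histone marks, wider peaks were found elsewhere, up to 29710 bp for H3K4me3, 88547 bp for H3K27ac and 86559 bp for H3K27me3. Of all 9793 peaks of at least 10 kb, 31 or 0.317% had both edges within 500 bp of such a peak of another antibody, and 11 of these lay over Pou5f1. All 11 peaks matched in this way by 2 or more other antibodies lay over Pou5f1. This tolerance and the count were chosen after the peaks were seen.

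**Figure D4:**
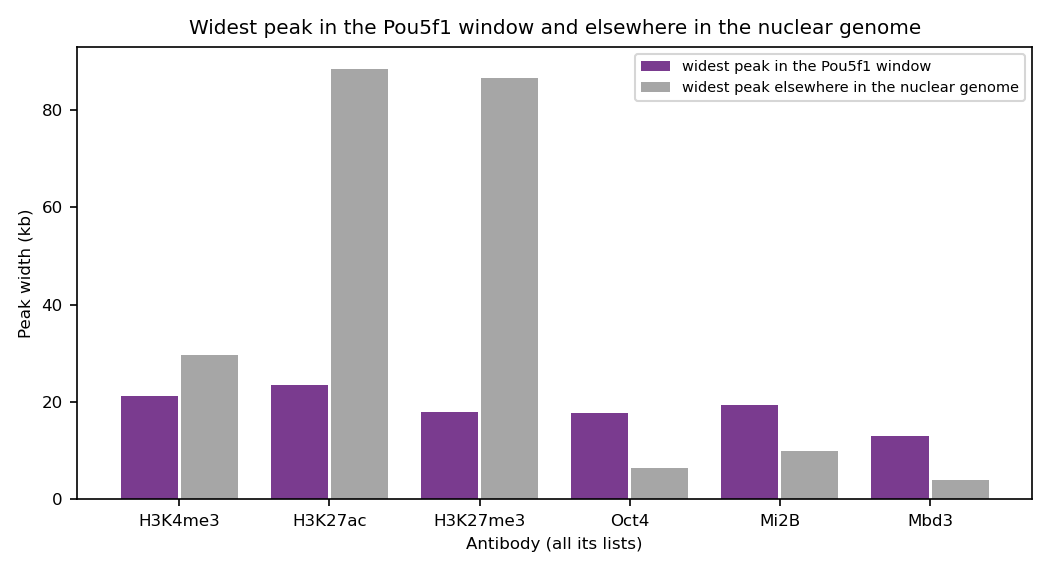
Bars give the width in kb of the widest peak in the Pou5f1 window and of the widest peak elsewhere in the nuclear genome, over all lists of each antibody. For Oct4, Mi2B and Mbd3 the window holds the wider peak, and for the histone marks the wider peak lies elsewhere.

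The tiles most like the window by the set of lists with a long peak shared at most 8 of its 19 lists. The nearest was on chromosome 10 at 80560001 to 80640000, with a Jaccard index (shared lists over lists in either set) of 0.381. The other 4 had an index of 0.368 and shared 7 lists. The first lay on chromosome 12 from 87760001 to 87840000. The next was on chromosome 11, spanning 97440001 to 97520000. The remaining pair began at 120080001 on chromosome 5 and at 34480001 on chromosome 3. Spearman's rho of covered length with the window over the 43 lists was 0.39 for the chromosome 10 tile and 0.67 to 0.81 for the other 4, as a description over lists that differ in length. Oct4, Mi2B and Mbd3 had 0 long peaks outside the window, so none of the 5 had one. The 3, 3 and 1 lists of these antibodies with a long peak could therefore not be shared by any tile.

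Outside the block the window had separate sites with shorter peaks. A site at -21.9 to -13.2 kb had H3K27ac in flox/- day 8, both iPS lines and -/- ES cells. Its peak measured 6414 bp in flox/- day 8, 8314 bp in +/+ iPS and 8618 bp in -/- ES cells, and flox/- iPS cells had 3 pieces of 1633 to 2895 bp. In +/+ iPS cells it also had peaks of Oct4 (439 bp), Mbd3 (681 and 711 bp) and Mi2B (599 to 1017 bp), and Mi2B was found there in flox/- iPS and -/- ES cells. In MEF the same place had H3K27me3 in both genotypes, with a peak of 3474 bp in +/+ and peaks of 1898 and 1230 bp in flox/- cells. The factor peaks here were shorter than those over the gene, which measured 12877 bp for Oct4, 12988 bp for Mbd3 and 18945 bp for Mi2B in +/+ iPS cells.

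Downstream, a site 23.5 to 29.6 kb past the gene start had H3K27ac in both iPS lines and -/- ES cells, and Mi2B in -/- ES cells. A site 32.6 to 35.3 kb past it had H3K27ac in the same 3 lists, Oct4 in flox/- day 8 cells, Mi2B in +/+ iPS and -/- ES cells, Mbd3 in +/+ iPS cells and H3K27me3 in flox/- MEF. The last site, from 35.5 kb past it to beyond the window, had peaks in 14 lists of 4 antibodies and none in MEF. There H3K27ac was present in all 6 H3K27ac lists with a member, and the +/+ iPS peak, of 10154 bp, was the only member of at least 10 kb that did not cross Pou5f1.

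A site that also had H3K4me3 in fibroblasts lay at -43.2 to -34.0 kb. H3K4me3 was found there in 8 of 9 lists, all except +/+ day 8. Its peak measured 428 bp in +/+ and 1929 bp in flox/- MEF, and 1526 and 2210 bp in the iPS lists. H3K27me3 was present in both MEF and both iPS lists and in -/- ES cells. In MEF the H3K27me3 peaks there reached 7539 bp in +/+ and 3716 bp in flox/- cells. In +/+ iPS and -/- ES cells this site therefore had H3K27me3 peaks, of 176 to 689 bp, while the block had none. A neighbouring site, at -33.7 to -29.0 kb, had H3K27me3 peaks in both MEF lists and no peak in any other list.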

How the data were processed

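ChIP-seq peak lists of 43 samples were used, each a table of peak start, end and score as deposited by the authors. Per the submitters' processing notes MACS 1.4.1, Bowtie 0.12.5 and CASAVA 1.8.2 were used with the mm9 build. Settings, controls for peak calling and a definition of the score were not given in the sources used here. Scores deposited by the authors run from 50.0 to 3233.06. A score of exactly 3100 recurs among the members, so scores at the top do not order peaks. A peak caller joins nearby enriched windows, so widths and breaks depend on its settings and on depth, which the lists do not give.

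Samples were grouped by title into genotype, stage and antibody, with 1 library each, so no test was run and values carry no replicate error. Members were all peaks sharing at least 1 bp with the window. Covered length is the length of the union of peaks. The autosomes and sex chromosomes were divided into 33027 tiles of 80 kb, aligned to the window, for the background counts. The tiles named are the 5 with the highest Jaccard index to the window over the lists with a peak of at least 10 kb, ties being ordered by rho. The members, lists and thresholds were chosen with earlier results of these data known. The edge clusters, the break before the promoter, the count of peaks with matching edges and the added alternatives were chosen after the peaks were seen. Alternatives were a score of at least 100, other width, edge and tile limits, joining of peaks less than 1 kb apart, equal numbers of peaks per list, a smaller window and peak midpoints.

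Positions are 1-based mm9. The promoter sequence and gene order come from RefSeq tables of GRCm38.p6, and no position was converted. The tile count was tested on simulated data, where 200 of 200 planted tiles and 0 others were found. Covered lengths in all 33027 tiles were equal to those from bedtools 2.31.1 for the flox/- day 8 H3K27ac list. Figures were drawn with matplotlib 3.10.9, and values came from pandas 2.3.3 and numpy 2.4.6 under Python 3.11.15, with scipy 1.17.1 for rho.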

Additional observations from a re-analysis of the deposited data

Results flagged for a closer look

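In 3 comparisons of stages, the covered length of the window moved in opposite directions in +/+ and flox/- cells. Each rests on 1 library per point, and the difference was not tested. From day 4 to day 8 the H3K4me3 coverage changed by 2.36 kb in +/+ and by -2.03 kb in flox/- cells. The opposite direction was lost under 2 alternatives chosen after seeing the data. With scores of at least 100 the changes were 4.86 and 5.09 kb, and within the block 4.86 and 0.83 kb. The flox/- day 4 list has a peak of 7834 bp with a score of 51.65. From day 8 to iPS cells the Mi2B coverage changed by 7.04 kb in +/+ and by -10.48 kb in flox/- cells. From day 4 to iPS cells it changed by 10.0 kb in +/+ and by -3.63 kb in flox/- cells. The Mi2B changes kept their directions under both alternatives. The +/+ Mi2B samples of day 4 and day 8, from which these changes start, have stage labels that name day 7 and day 11. The days of the +/+ changes are therefore uncertain. Beside the Mi2B values, the flox/- iPS list held 3462 peaks and the +/+ iPS list 26992, and the part of list length in the change was not tested.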

How the results depend on the processing

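No paired analysis was possible because every group held 1 library and replicate numbers were names only. With a limit of 15 kb, 12 lists in place of 19 had a wide peak over the gene. Both edges lay near the medians in 5 lists at 1 kb and in 19 at 5 kb, against 8 at 2 kb. With 40 kb tiles, 2 tiles had wide peaks of all 6 antibodies, both inside the window. The number of lists with a member, 35, and of pairs with more coverage in flox/- cells, 10, stayed within 1.5 times under the alternatives run. Of 99 alternative values of the pairs' differences, 68 moved little, 24 changed size and 7 changed sign. The 68 include all values of the MEF pairs of H3K27ac and Oct4, which had no peak in the window and so could not move. With peak midpoints, flox/- minus +/+ coverage was -0.5 kb for MEF H3K4me3, -1.0 kb for iPS H3K4me3, 1.0 kb for iPS H3K27ac, 1.0 kb for MEF H3K27me3 and -1.75 kb for day 8 Mi2B. Midpoint values follow the number of peaks, so these changes of sign do not bear on covered length. Within the block it was 0.23 kb for MEF H3K27me3, and with a score of at least 100 it was 0.19 kb for day 4 Mi2B. Without the 4 +/+ lists whose stage labels conflict, an alternative chosen after seeing the data, 19 lists still had a wide peak and 8 pairs had more coverage in flox/- cells. For flox/- H3K4me3 the change from day 4 to day 8 turned to 5.09 kb with scores of at least 100 and to 0.83 kb within the block. Depth is unknown, so what an absent peak allows cannot be bounded.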
